A study of Saccharomyces cerevisiae with 10 samples.

Results

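The evolved allele of MDS3, carried alone, was set against the ancestral strain from which it was derived. The comparison used 4 of the 10 arrays of the series, 2 from MDS3e cultures and 2 from Ancestral cultures, chosen by the genotype in the labels, and covered 5449 genes of Saccharomyces cerevisiae. All strains were haploid, shared the background named Sce3044 and carried no other evolved alleles than those in their names. MDS3e MKT1e and MKT1e, with 2 arrays each, gave the effect of the same allele beside a second evolved allele, and PMA1e MKT1e entered only the pooled estimate of spread. Every culture was in logarithmic growth: cells went from an overnight in rich medium into defined low-glucose medium with 0.25% dextrose and uracil, to an optical density near 0.2 at about 17 h. Replicates are labelled biological. The labels describe 1 strain per genotype, so a difference between strains cannot be told apart from one between their alleles.

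Mds3 is a kelch-repeat protein that, with its paralog Pmd1, holds back the early genes of meiosis in S. cerevisiae. In the fungus Candida albicans Mds3 acts in growth control with the TOR kinase pathway and the Sit4 phosphatase, and in the response to external pH. In budding yeast, TOR and the Ras/protein kinase A pathway couple nutrient supply to ribosome production and hold down the genes of the general stress response. Phosphate supply is read separately, by the PHO pathway, in which the cyclin-dependent kinase Pho80-Pho85 keeps the activator Pho4 out of the nucleus while phosphate is plentiful.

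Values below are array intensities as deposited, 1 per gene and array, and differences are MDS3e minus Ancestral on the scale of log2 of intensity plus 16, which understates the change of dim genes. A gene was called when limma's adjusted p was under 0.05. The 2 MDS3e arrays correlated at 0.998 and the 2 Ancestral arrays at 0.996 across genes, and MDS3e arrays correlated with Ancestral arrays at 0.987 to 0.991. Between 5358 and 5379 genes lay above the background limit on each of the 10 arrays, and no 2 arrays were identical. The median standard error of a difference was 0.0667, and the number of arrays, 2 per genotype, limits precision. Of the 5449 genes, 790 were higher in MDS3e (14.5%) and 585 lower (10.7%), 25.2% in all, with a median difference of 0.03 over all genes. Most of these differences were small: on the scale of intensity plus 16, 112 called genes (2.06%) differed at least 1.5-fold. At least 2-fold on that scale were 27 (0.496%), of which 9 were higher and 18 lower in MDS3e. The count of calls fell to 554 without the first MDS3e array, to 623 without the second MDS3e array and to 749 without the second Ancestral array. After median centring of each array, 504 genes were higher and 845 lower. The shares as deposited, 14.5% higher and 10.7% lower, are the background for the list counts of MDS3e against Ancestral below.

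Mating-type genes were read in both genotypes, and they report mating type, so they cannot show that the cells were haploid. STE2, the receptor for alpha-factor, read 1561 and 1719 in MDS3e, against 1703 and 1856 in Ancestral. MF(ALPHA)1, the main alpha-factor precursor, read 1.93 and 6.20 in MDS3e and 3.99 and 2.76 in Ancestral, near the background limit of 1.73. STE3, the a-factor receptor of the opposite mating type, read 29.0 and 27.2 in MDS3e, against 30.8 and 23.3 in Ancestral. None of these 3 genes was called, and in each of them the arrays of the genotypes overlapped.

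MDS3 itself was read at 215 and 208 in MDS3e and at 246 and 232 in Ancestral. The arrays of the genotypes did not overlap, as was the case for 61.7% of all genes, but the difference of -0.16 (SE 0.058) was not called (adjusted p = 0.0622). The array reports the amount of the transcript and not the allele. PMD1, the paralog, read 80.02 and 80.05 in MDS3e, against 88.3 and 79.9 in Ancestral. With values as deposited and 16 added, none of the 18 measured genes of the list holding MDS3, PMD1 and the TOR branch was called. Their median difference was 0.02, beside 0.03 for all genes, or -0.04 after median centring, which moved the median of all genes by -0.06. The list had 1 member called lower after median centring, quantile normalization or loess, or with a larger pseudocount. The list counts do not name this member. In the main settings MDS3 had the lowest adjusted p of the 18 genes, so its lack of a call is stated only for those settings and may not hold under the others. TOR1, which encodes a TOR kinase, read 180 and 178 in MDS3e and 210 and 170 in Ancestral, so the groups overlapped. SIT4, the phosphatase subunit named above, read 376 and 373 in MDS3e, against 340 and 353 in Ancestral (difference 0.11, adjusted p = 0.177).

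Among the 20 early meiotic genes, 1 was higher, 1 lower and 18 were not called, with a median of 0.03. The list is dim: the median level of its members on the log2 scale was 4.92, beside a background limit of 4.15. Since the scale understates changes of dim genes, the 18 genes without a call do not show that early meiotic genes were unchanged. IME1, the master inducer of meiosis, read 42.3 and 45.5 in MDS3e, against 34.2 and 30.1 in Ancestral, a difference of 0.32 (SE 0.062, adjusted p = 0.00617). Its adjusted p was 0.0519 without the second MDS3e array. RME1, a repressor of IME1 in haploid cells, read 458 and 470 in MDS3e and 523 and 535 in Ancestral, a difference of -0.18 (adjusted p = 0.0273). The RME1 call was lost without either MDS3e array or without the second Ancestral array, with the adjusted p rising to 0.138. In the Rim101 and alkaline response list, 1 of 15 measured genes was higher and 1 lower, and the median was -0.01, or 0.05 without the first Ancestral array. ENA1, ENA2 and FKS2 of this list were not measured, so the counts do not cover them. RIM101, the transcription factor of that pathway, read 174 and 178 in MDS3e, against 193 and 192 in Ancestral, and was not called (adjusted p = 0.121). The called members were RCN1, a regulator of calcineurin, with 81.5 and 82.3 in MDS3e against 71.6 and 58.8 in Ancestral, and PMC1, a vacuolar calcium pump, with 220 and 213 in MDS3e against 264 and 241 in Ancestral. Both had adjusted p-values above 0.04 and lost the call in several of the runs that left out 1 array.

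The largest rises in MDS3e were in phosphate genes. Over 4 lists of the pathway, 15 of 33 measured genes were higher, 2 lower and 16 not called, against 14.5% higher among all genes. The plot of phosphate genes by array shows that the risers were a subset.

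**Figure D1:**
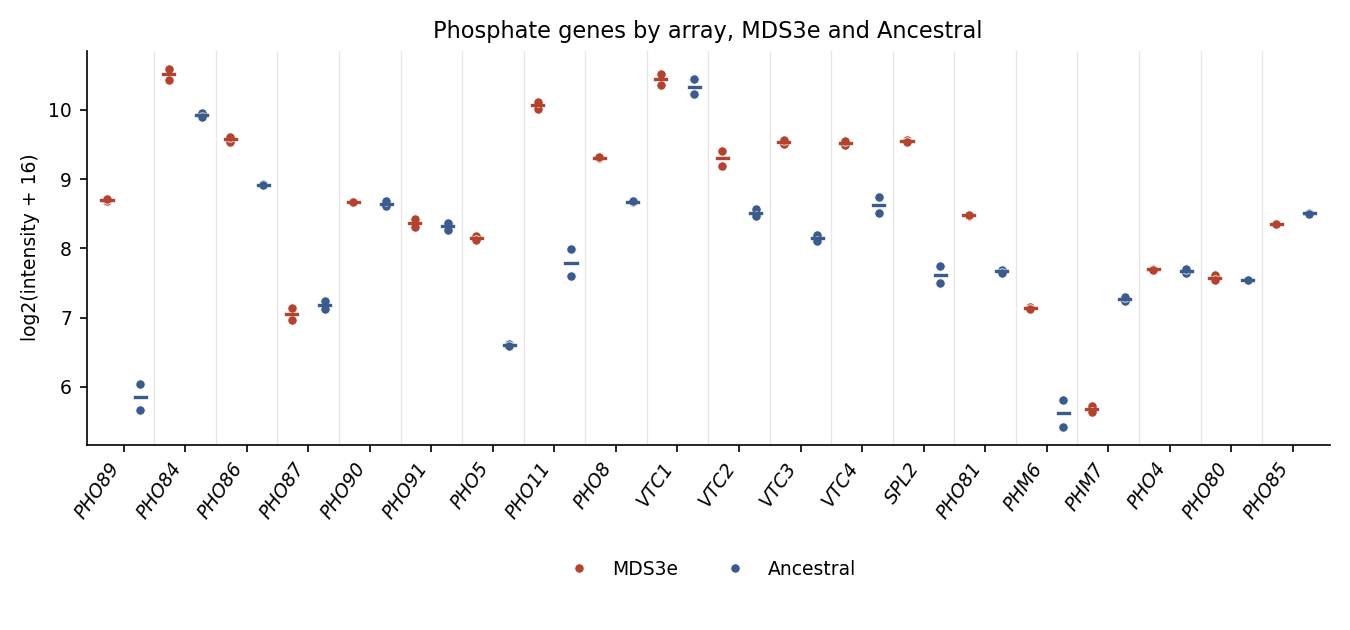
Levels of 20 phosphate genes on each array, as log2 of intensity plus 16 (vertical axis), with MDS3e points left of Ancestral points and a bar at each mean of 2 arrays. PHO89, PHO5, PHO11, VTC2 to VTC4, SPL2, PHO81 and PHM6 sit apart and higher in MDS3e, PHM7 sits lower, and PHO90, PHO91, PHO4 and PHO80 overlap between genotypes.

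Phosphate uptake was uneven across the transporters. PHO89, the sodium-coupled high-affinity transporter, read 393 and 402 in MDS3e, against 49.9 and 34.5 in Ancestral. The difference of 2.84 (SE 0.099, adjusted p = 2.28e-07), or 7.17-fold, was the largest of all genes called. PHO84, the proton-coupled high-affinity transporter, read 1367 and 1531 in MDS3e, against 973 and 936 in Ancestral, a difference of 0.59 (adjusted p = 0.00217). PHO86, needed for Pho84 to leave the endoplasmic reticulum, read 729 and 763 in MDS3e and 469 and 465 in Ancestral, a difference of 0.66 (adjusted p = 3.7e-05). The low-affinity transporters were not called. PHO87 read 109 and 125 in MDS3e, against 135 and 124 in Ancestral, and PHO90 read 389 and 389 in MDS3e, against 374 and 394 in Ancestral. PHO91, the vacuolar transporter, read 328 and 301 in MDS3e and 315 and 292 in Ancestral. Thus 3 of the 7 measured genes of the transporter list, which also holds PHO86, were higher and none was lower, with a median of 0.10.

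Secreted and vacuolar phosphatases followed. PHO5, the main repressible acid phosphatase, read 274 and 263 in MDS3e, against 82.7 and 80.3 in Ancestral, a difference of 1.54 (SE 0.080, adjusted p = 2.37e-06). PHO11, another acid phosphatase, read 1016 and 1094 in MDS3e and 237 and 178 in Ancestral, a difference of 2.27 (adjusted p = 1.06e-05), on a probe set that may also read related genes. PHO8, the vacuolar alkaline phosphatase, read 616 and 621 in MDS3e, against 390 and 395 in Ancestral, a difference of 0.64. PHO3, the constitutive acid phosphatase, read 49.5 and 47.4 in MDS3e and 51.0 and 56.6 in Ancestral and was not called (adjusted p = 0.26). PHM8, a phosphatase acting on lysophosphatidic acid and nucleotides, went the other way, with 177 and 150 in MDS3e against 206 and 214 in Ancestral (difference -0.34, adjusted p = 0.017). That call was lost without the second MDS3e array or without the second Ancestral array. In this list 3 of 7 measured genes were higher and 1 lower, and the median was 0.04, or -0.01 after median centring.

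The VTC complex makes polyphosphate, the store of phosphate in the vacuole. VTC3 read 712 and 741 in MDS3e, against 277 and 259 in Ancestral, a difference of 1.39 (SE 0.082, adjusted p = 5.32e-06). VTC4, the catalytic subunit, read 708 and 732 in MDS3e and 411 and 349 in Ancestral (0.90), and VTC2 read 664 and 569 in MDS3e and 362 and 336 in Ancestral (0.79). VTC1, the small subunit, read 1297 and 1455 in MDS3e, against 1186 and 1374 in Ancestral, so its arrays overlapped and it was not called (adjusted p = 0.438). Of the enzymes that break polyphosphate down, DDP1 was higher, with 283 and 293 in MDS3e against 214 and 234 in Ancestral (0.34). PPN1 and PPX1 were not called, with differences of 0.13 and 0.05. The list had 4 of 7 measured genes higher and none lower, and a median of 0.34.

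Regulators split by position in the pathway. SPL2, which restrains low-affinity phosphate transport, read 743 and 724 in MDS3e, against 199 and 164 in Ancestral, a difference of 1.93 (SE 0.139, adjusted p = 1.64e-05). PHO81, the inhibitor of the Pho80-Pho85 kinase and itself a target of Pho4, read 338 and 342 in MDS3e and 191 and 184 in Ancestral (0.81, adjusted p = 9.94e-06). PHM6, a phosphate-regulated gene of unknown function, read 126 and 123 in MDS3e, against 40.1 and 26.9 in Ancestral (1.52). The core components were not called: PHO4 read 192 and 191 in MDS3e and 184 and 192 in Ancestral, PHO80 179 and 171 in MDS3e and 171 and 170 in Ancestral, and PHO2 104 and 96.4 in MDS3e and 95.5 and 88.1 in Ancestral. PHO85 read 312 and 311 in MDS3e, against 350 and 345 in Ancestral (-0.15, adjusted p = 0.0901). PHM7, which the list also holds and which is counted among the stress genes as well, was lower, with 36.6 and 33.9 in MDS3e against 135 and 142 in Ancestral (-1.59). VIP1, an inositol pyrophosphate kinase, and SIW14, an inositol pyrophosphate phosphatase, were called at 0.28 and 0.19, but both calls were lost without either MDS3e array and under median centring, quantile normalization and loess. The regulator list had 5 of 12 genes higher and 1 lower with a median of 0.09, and 3 higher without either MDS3e array.

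General stress genes were lower in MDS3e. Of 46 effectors, 34 were lower, 1 higher and 11 not called, beside 10.7% lower among all genes, and their median difference was -0.54. Their mean level on the log2 scale was 7.37 and 7.36 on the MDS3e arrays, against 7.95 and 8.002 on the Ancestral arrays. YGP1, a secreted cell wall glycoprotein induced on nutrient limitation, read 345 and 365 in MDS3e, against 1183 and 1401 in Ancestral, a difference of -1.81 (SE 0.084, adjusted p = 1.39e-06). DDR2, a multistress response gene, read 377 and 336 in MDS3e and 1051 and 1193 in Ancestral (-1.61, adjusted p = 1.39e-06). FMP16 and RTC3 are not in this list and were named for the size of their falls. FMP16, a protein found in mitochondria, read 57.2 and 60.8 in MDS3e, against 240 and 220 in Ancestral (-1.71). RTC3, a protein of RNA metabolism, read 124 and 132 in MDS3e and 299.5 and 376 in Ancestral (-1.29). In each of these genes both MDS3e arrays were far below both Ancestral arrays, while 61.7% of all genes had arrays that did not overlap.

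DCS2, a stress-induced relative of the scavenger decapping enzyme, read 205 and 202 in MDS3e, against 447 and 461 in Ancestral (-1.10). MSC1, a gene affecting meiotic recombination, read 304 and 300 in MDS3e and 676 and 733 in Ancestral (-1.18). GPG1 is not in the stress list and was named for the size of its fall. This gene, described as a gamma subunit partner of the glucose-sensing G protein Gpa2, read 47.8 and 42.6 in MDS3e, against 107 and 123 in Ancestral (-1.10, adjusted p = 0.00186). TKL2, the minor transketolase of the pentose phosphate pathway, read 6.46 and 5.74 in MDS3e and 21.1 and 26.4 in Ancestral (-0.84). TMA10, a ribosome-associated protein, was the single stress effector called higher, with 981 and 947 in MDS3e against 809 and 752 in Ancestral (0.30). Its adjusted p was 0.0526 without the first MDS3e array.

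Genes against oxidants changed in part, and CTT1, TSA2 and GPX1 are counted among the stress effectors as well. Of 23 catalase, peroxidase and thioredoxin genes, 9 were lower and 1 higher, with a median of -0.12, and 4 were lower without the first MDS3e array or without the second Ancestral array. The median was -0.06 after quantile normalization, -0.04 after loess and -0.05 once the median of genes of like brightness was subtracted. CTT1, the cytosolic catalase, read 54.2 and 64.4 in MDS3e, against 146 and 160 in Ancestral (-1.17, adjusted p = 2.49e-05). TSA2, a stress-induced peroxiredoxin, read 30.3 and 27.5 in MDS3e and 64.8 and 70.3 in Ancestral (-0.90). GPX1, a glutathione peroxidase, read 49.0 and 37.8 in MDS3e, against 66.4 and 73.7 in Ancestral (-0.54), and TRX2, a cytosolic thioredoxin, read 1419 and 1400 in MDS3e against 1890 and 1922 in Ancestral (-0.43). YAP1, the transcription factor of the oxidant response, was called higher, with 180 and 160 in MDS3e against 142 and 128 in Ancestral (0.30, adjusted p = 0.0143), and lost its call without the first MDS3e array or the second Ancestral array.

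Heat shock proteins were mixed, with 9 of 24 lower, 2 higher and a median of -0.15, and with 5 lower without the first MDS3e array. Over all genes 10.7% were lower and 14.5% higher. The median of the heat shock list was -0.02 after quantile normalization and after loess, and -0.03 once the median of genes of like brightness was subtracted. HSP26, a small chaperone, read 97.4 and 102 in MDS3e, against 247 and 236 in Ancestral (-1.15, adjusted p = 0.000165), and is counted with the stress effectors. HSP31, a methylglyoxalase and chaperone, read 459 and 473 in MDS3e and 652 and 779 in Ancestral (-0.60). SSE2, a nucleotide exchange factor for Hsp70, read 152 and 150 in MDS3e, against 214 and 212 in Ancestral (-0.45). SSA4, a stress-induced Hsp70, read 112 and 114 in MDS3e and 152 and 145 in Ancestral (-0.35).

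The regulators above these genes moved less than the stress effectors. In the Ras/protein kinase A and stress regulator list, 6 of 22 measured genes were lower and none higher, with a median of -0.14, and 2 were lower without either MDS3e array. Among all genes 10.7% were lower. The median of this list was -0.19 after median centring or quantile normalization and -0.20 after loess. It was -0.18 once the median of genes of like brightness was subtracted. GPA2, the G protein alpha subunit of the glucose-sensing branch, read 305 and 301 in MDS3e, against 379 and 390 in Ancestral (-0.33, adjusted p = 0.00186). IRA1, a GTPase-activating protein that switches Ras off, read 306 and 302 in MDS3e and 388 and 357 in Ancestral (-0.28, adjusted p = 0.00598). The other 4 calls, YAK1, GIS1, BCY1 and GPR1, lay between -0.18 and -0.25 and were lost without either MDS3e array. MSN2, an activator of the stress genes, read 189 and 203 in MDS3e, against 215 and 217 in Ancestral, and its relative MSN4 172 and 186 in MDS3e, against 197 and 188 in Ancestral. Neither was called (adjusted p = 0.103 for MSN2 and 0.407 for MSN4), nor was RIM15, a kinase of entry into quiescence, with 65.2 and 65.5 in MDS3e and 67.2 and 66.7 in Ancestral.

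**Figure D2:**
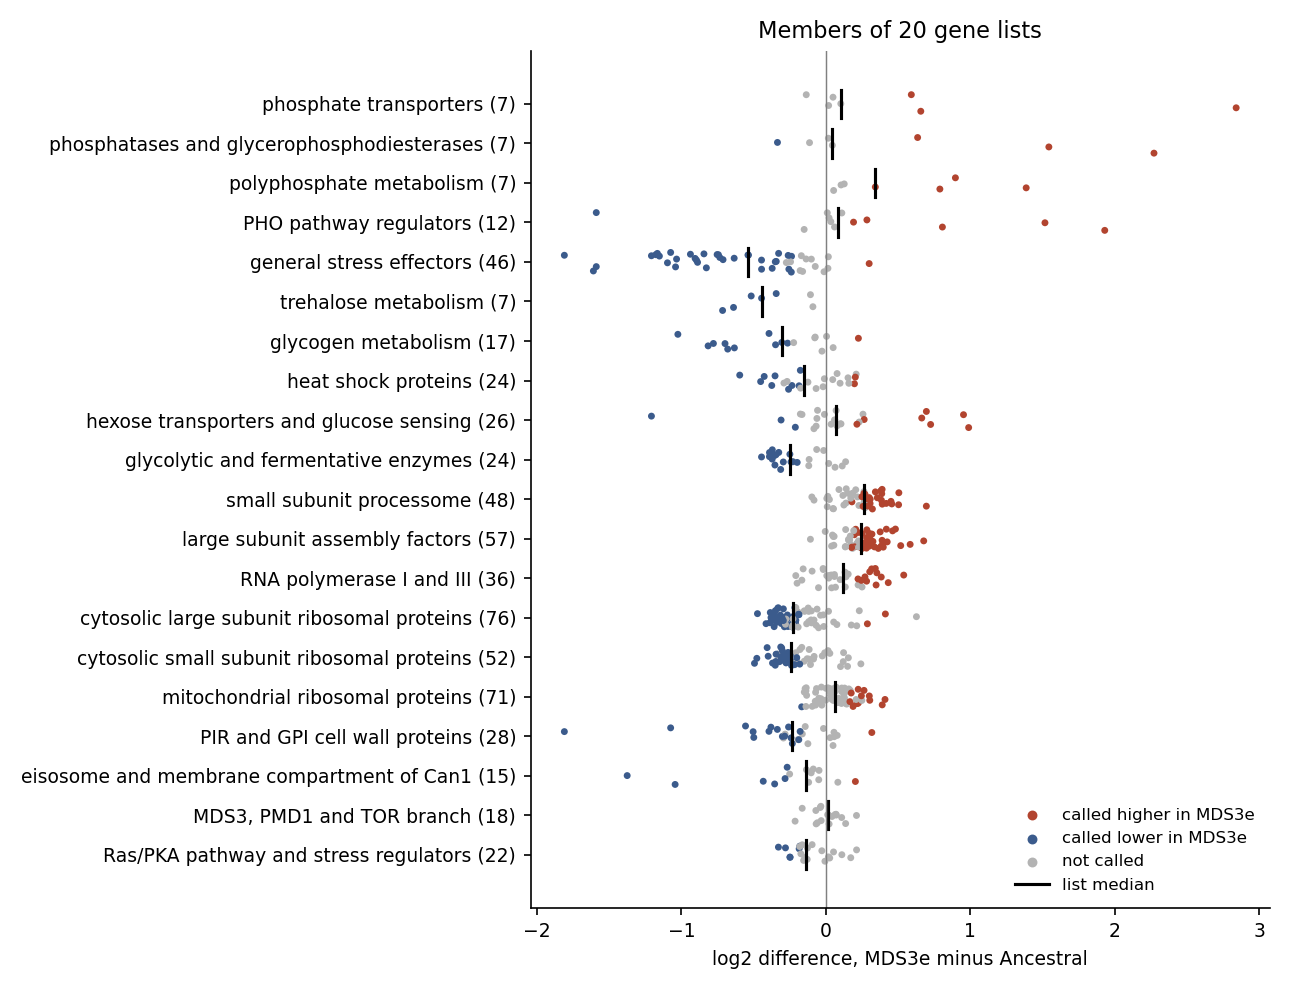
Differences of MDS3e minus Ancestral on the log2 scale (horizontal axis) for every measured member of 20 gene lists, with the number of members in brackets, points coloured by call and a black bar at each list median. The general stress, trehalose and glycogen lists lie mostly below 0, the small subunit processome and large subunit assembly lists mostly above 0, and the phosphate lists hold a few members far to the right.

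Genes of carbohydrate stores were lower as well. All 7 trehalose genes had negative differences, 5 of them called lower, with a median of -0.45 and mean levels of 8.37 and 8.40 on the MDS3e arrays against 8.79 and 8.79 on the Ancestral arrays. TSL1, a regulatory subunit of trehalose synthase, read 523 and 517 in MDS3e, against 842 and 887 in Ancestral (-0.72, adjusted p = 0.000109). TPS2, the phosphatase of the complex, read 330 and 324 in MDS3e and 516 and 520 in Ancestral (-0.64), and TPS1, its synthase, 708 and 749 in MDS3e and 976 and 1128 in Ancestral (-0.52). The breakdown enzymes NTH1, with 302 and 327 in MDS3e against 416 and 452 in Ancestral (-0.45), and ATH1, with 87.6 and 88.6 in MDS3e against 128 and 105 in Ancestral (-0.34), were lower too. ATH1 lost its call without either MDS3e array. The remaining pair, TPS3 and NTH2, differed by -0.11 and -0.09 and were not called.

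Of 17 glycogen genes, 10 were lower and 1 higher, with a median of -0.31. GAC1, a targeting subunit of the phosphatase that activates glycogen synthase, read 22.1 and 25.7 in MDS3e, against 63.5 and 66.8 in Ancestral (-1.02, adjusted p = 4.08e-05). GSY2, the main glycogen synthase, read 487 and 490 in MDS3e and 763 and 822 in Ancestral (-0.68), while GSY1, its paralog, read 237 and 214 in MDS3e and 264 and 267 in Ancestral and was not called (adjusted p = 0.137). Enzymes of breakdown were lower as well: GPH1, the phosphorylase, read 411 and 418 in MDS3e, against 741 and 743 in Ancestral (-0.82), and GDB1, the debranching enzyme, read 192 and 189 in MDS3e, against 300 and 309 in Ancestral (-0.63). The phosphoglucomutases split. PGM2, the major form, read 468 and 443 in MDS3e and 796 and 788 in Ancestral (-0.78, adjusted p = 2.54e-05). PGM1, the minor form, read 310 and 326 in MDS3e and 271 and 268 in Ancestral (0.23, adjusted p = 0.0131), a call lost without the second MDS3e array, without the second Ancestral array and after median centring.

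Hexose transporters divided by member, in counts that stand beside 14.5% higher and 10.7% lower among all genes. Of 26 measured genes of transport and glucose sensing, 7 were higher and 3 lower, with a median of 0.07, and 4 were higher without the second MDS3e array or without the second Ancestral array. HXT2, a high-affinity transporter repressed by abundant glucose, read 1051 and 1088 in MDS3e, against 596 and 498 in Ancestral (0.95, SE 0.154, adjusted p = 0.00232). HXT3, a low-affinity transporter, read 1070 and 966 in MDS3e and 681 and 594 in Ancestral (0.66), and HXT4 read 935 and 900 in MDS3e and 593 and 530 in Ancestral (0.70, adjusted p = 9.55e-05). HXT1, the low-affinity transporter of high glucose, read 55.5 and 57.8 in MDS3e, against 35.1 and 21.8 in Ancestral (0.73), and lost its call without the second MDS3e array or the second Ancestral array. All of these were higher on both MDS3e arrays than on both Ancestral arrays, while 61.7% of all genes had arrays that did not overlap.

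Other members of that list were lower, at a share near the 10.7% of all genes. HXT5, a transporter of slowly growing and starved cells that the stress list also holds, read 12.5 and 11.9 in MDS3e, against 49.4 and 48.8 in Ancestral (-1.21, adjusted p = 1.37e-05). HXT7, a high-affinity transporter whose probe set is shared, read 1470 and 1530 in MDS3e, against 1789 and 1941 in Ancestral (-0.31, adjusted p = 0.00471), and it was not called after quantile normalization (-0.13) or loess. MIG2, a repressor in glucose repression, read 119 and 135 in MDS3e and 53.7 and 58.4 in Ancestral (0.99, adjusted p = 2.49e-05), while MIG1, its better-known relative, read 300 and 295 in MDS3e and 289 and 274 in Ancestral and was not called. The sensor RGT2 read 115 and 118 in MDS3e, against 96.0 and 92.5 in Ancestral (0.27), with the call lost without the second MDS3e array or the second Ancestral array. SNF3, the other sensor, read 79.4 and 90.0 in MDS3e and 81.4 and 78.2 in Ancestral, so its arrays overlapped.

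**Figure D3:**
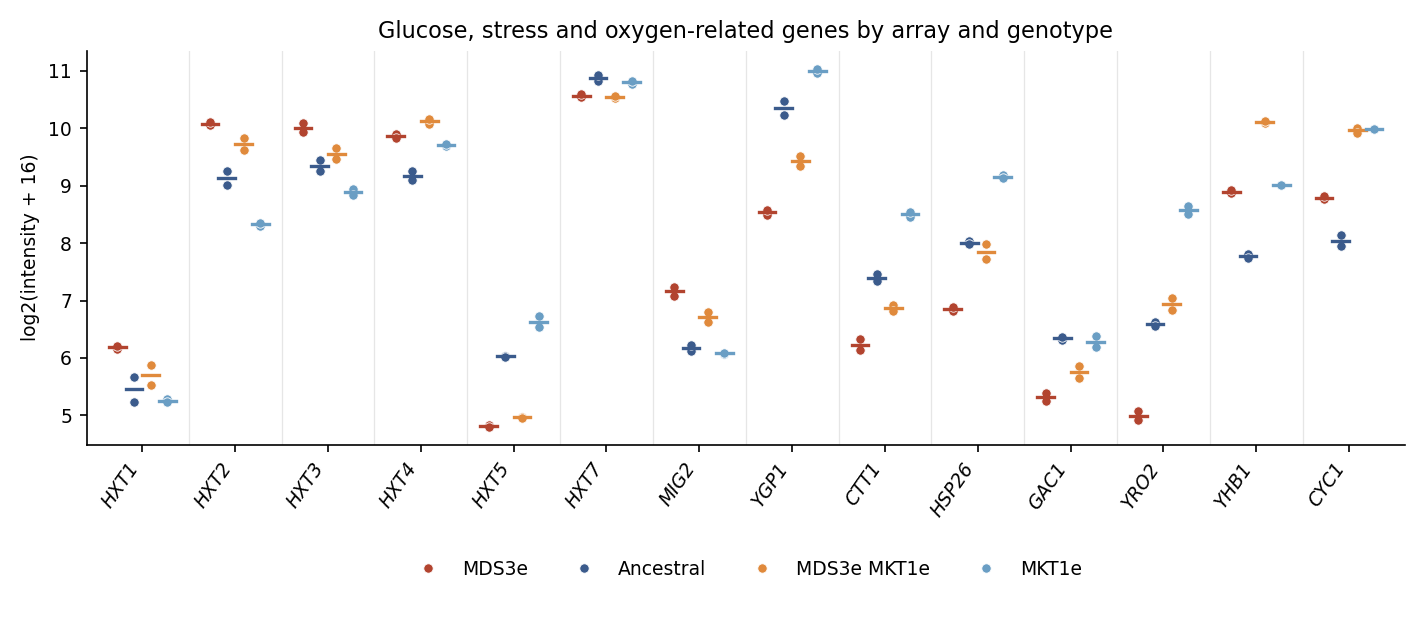
Levels of 14 genes on each array as log2 of intensity plus 16 (vertical axis) in MDS3e, Ancestral, MDS3e MKT1e and MKT1e, from left to right within each gene, with a bar at each mean of 2 arrays. HXT2, HXT3 and MIG2 are higher and HXT5, YGP1, CTT1 and HSP26 lower with the evolved MDS3 allele in both pairs, whereas CYC1 differs between MDS3e and Ancestral and overlaps between MDS3e MKT1e and MKT1e.

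Part of the genes that build ribosomes was higher, beside 14.5% of all genes. Of 48 small subunit processome genes 24 were higher and none lower (median 0.26), and of 57 large subunit assembly factors 36 were higher and none lower (median 0.25). The counts rested on single arrays: the processome list had 12 higher genes without the first MDS3e array, 11 without the second MDS3e array and 11 without the second Ancestral array. The assembly list had 10, 15 and 12 in the same runs, and the list of RNA polymerase I and III, with 12 of 36 higher, none lower and a median of 0.12 (0.06 after median centring), had 7, 4 and 4. UTP7, a processome component, read 208 and 209 in MDS3e, against 131 and 115 in Ancestral (0.70, SE 0.078, adjusted p = 0.000251). PWP2, another, read 172 and 173 in MDS3e and 130 and 105 in Ancestral (0.50), and KRR1 read 222 and 208 in MDS3e and 150 and 144 in Ancestral (0.51). RRP15, a factor of the large subunit, read 317 and 334 in MDS3e, against 213 and 183 in Ancestral (0.68, adjusted p = 0.000665). RPC17, a subunit of RNA polymerase III, read 159 and 168 in MDS3e and 109 and 106 in Ancestral (0.54). These 5 genes kept their calls in every run that left out 1 array.

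The ribosomal proteins themselves did not follow, and they lie among the brightest genes. Of 10 equal groups of genes by mean level, the brightest, with 545 genes, had a median difference of -0.15, with 8 higher and 221 lower, while the medians of the other groups lay between 0.00 and 0.06. Of 76 genes of the large subunit list 41 were lower and 2 higher with a median of -0.22, which became -0.01 after quantile normalization. Of 52 small subunit genes 30 were lower and none higher and their median difference of -0.24 became 0.01 after quantile normalization and stayed at -0.04 after loess. Without the first MDS3e array 12 large subunit and 9 small subunit genes were lower, and without the second Ancestral array 20 and 17, and 4 large subunit genes were higher without the first Ancestral array. RPS31, a fusion of ubiquitin and a small subunit protein, read 2207 and 2336 in MDS3e, against 3042 and 3377 in Ancestral (-0.49, adjusted p = 0.000733). Its readings were the highest of any gene on the Ancestral arrays, while the highest on the MDS3e arrays were 2387.5 and 2602.2. RPL39 went against its list, with 2078 and 2084 in MDS3e and 1655 and 1472 in Ancestral (0.41, adjusted p = 0.00162), as did RPL22B, with 694 and 669 in MDS3e and 563 and 548 in Ancestral (0.29). With the median of genes of like brightness subtracted, the median of the large subunit list was -0.08 and that of the small subunit list -0.09.

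**Figure D4:**
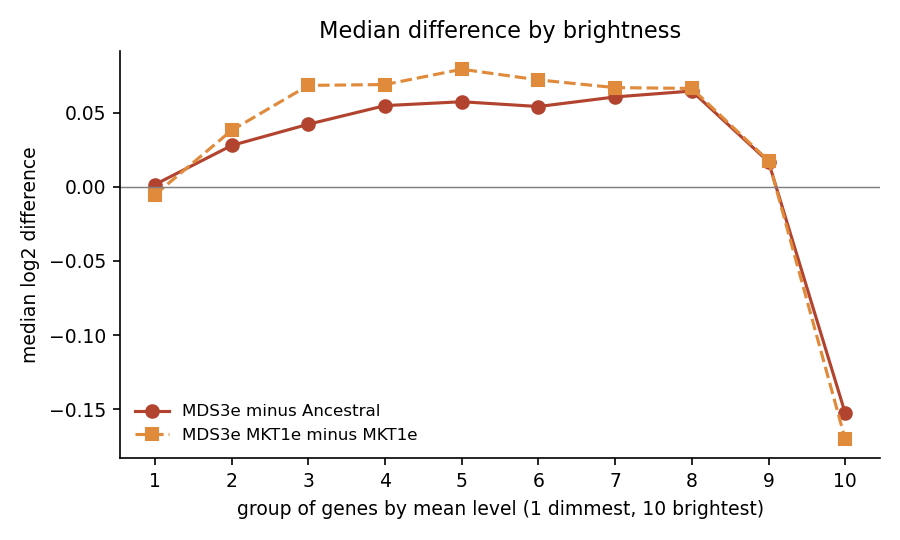
Median log2 difference of genes in 10 equal groups by mean level over the arrays, from the dimmest to the brightest, for MDS3e minus Ancestral and for MDS3e MKT1e minus MKT1e. The brightest group lies at -0.15 for MDS3e minus Ancestral and at -0.17 for MDS3e MKT1e minus MKT1e, and the others lie near or just above 0.

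Glycolytic and fermentative enzymes shared that brightness, and 15 of 24 measured were lower and none higher. Of the lower genes, GLK1 and HXK1 are counted among the stress effectors as well. Their median of -0.25 shrank to -0.08 after quantile normalization, to -0.09 after loess and to -0.13 with the brightness group subtracted, and the number of lower genes was 0 without the first MDS3e array, 9 without the second and 4 without the second Ancestral array. GLK1, glucokinase, read 1204 and 1311 in MDS3e, against 1562 and 1889 in Ancestral (-0.45, adjusted p = 0.00744), and lost its call without the first MDS3e array. PGK1, phosphoglycerate kinase, read 2068 and 2299 in MDS3e and 2616 and 3136 in Ancestral (-0.39), and was not called after quantile normalization or loess. HXK2, the hexokinase that also acts in glucose repression, overlapped, with 1484 and 1675 in MDS3e and 1451 and 1668 in Ancestral. The histones behaved alike, with 3 of 9 lower, and their median difference of -0.18 came to 0.05 after quantile normalization and 0.02 after loess.

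At the plasma membrane, PMA1, the proton pump, read 1761 and 1838 in MDS3e, against 2283 and 2364 in Ancestral (-0.37, adjusted p = 0.00116). This call too was lost after quantile normalization (-0.14) and loess. Of the 9 genes of the pump and its neighbours 5 were lower and none higher, with a median of -0.31, or -0.18 after quantile normalization and after loess. YRO2, a membrane protein related to the stress protein Hsp30, read 17.5 and 14.4 in MDS3e, against 82.5 and 77.8 in Ancestral (-1.59, adjusted p = 2.49e-05). MRH1, its paralog, read 1163 and 1251 in MDS3e and 1524 and 1713 in Ancestral (-0.42), and HSP30, which lowers pump activity under stress, read 24.8 and 23.9 in MDS3e and 32.6 and 40.3 in Ancestral (-0.37).

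Eisosomes are furrows of the plasma membrane, and 6 of 15 of their genes were lower and 1 higher, with a median of -0.13 and 3 lower without the first MDS3e array. Over all genes 10.7% were lower. FMP45, an integral membrane protein of these domains, read 16.03 and 14.94 in MDS3e, against 54.6 and 78.5 in Ancestral (-1.38, adjusted p = 4.51e-05). YNL194C, a relative of it, read 13.6 and 11.3 in MDS3e and 46.2 and 39.2 in Ancestral (-1.04). LSP1, a core eisosome component, read 1237 and 1259 in MDS3e and 1581 and 1810 in Ancestral (-0.43), while SUR7, which marks the same domains, read 959 and 1002 in MDS3e, against 971 and 1171 in Ancestral, and overlapped. In the cell wall list 15 of 28 genes were lower and 1 higher, with a median of -0.24 that became -0.11 after quantile normalization, and 8 were lower without the first MDS3e array. SPI1, a wall protein induced by weak acids and in stationary phase, read 177 and 184 in MDS3e, against 377 and 421 in Ancestral (-1.07). Both SPI1 and YGP1, the largest fall of the cell wall list, are counted among the stress effectors as well. PIR3 read 37.7 and 37.1 in MDS3e and 59.5 and 65.6 in Ancestral (-0.56), and CWP1 1073 and 1114 in MDS3e and 1501 and 1605 in Ancestral (-0.50). UTR2, a transglycosylase that links chitin to glucan, was the member called higher, with 915 and 946 in MDS3e against 758 and 729 in Ancestral (0.32, adjusted p = 0.00252).

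Among oxygen- and heme-regulated genes, 4 of 22 were higher and 7 lower, beside 14.5% and 10.7% of all genes. Their median was -0.04, or -0.11 after quantile normalization. YHB1, the flavohemoglobin that detoxifies nitric oxide, read 452 and 468 in MDS3e, against 209 and 197 in Ancestral (1.12, SE 0.081, adjusted p = 1.67e-05). ANB1, the hypoxic form of the translation factor eIF5A, read 31.3 and 33.5 in MDS3e and 50.2 and 51.5 in Ancestral (-0.47, adjusted p = 0.000453). AAC1, a mitochondrial ADP/ATP carrier, read 150 and 152 in MDS3e and 201 and 215 in Ancestral (-0.42), and HEM1, the first enzyme of heme synthesis, 459 and 514 in MDS3e and 372 and 384 in Ancestral (0.35). The HEM1 call was lost without the second MDS3e array, and in that run 2 genes of the list were higher and 3 lower, with 4 lower without the first MDS3e array or the first Ancestral array.

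The respiratory chain and ATP synthase list had 8 of 37 genes lower and 2 higher and a median difference of -0.09, or 0.03 after loess, and 3 were lower without the first MDS3e array, 5 without the second and 4 without the second Ancestral array. CYC1, the main cytochrome c, read 419 and 435 in MDS3e, against 231 and 265 in Ancestral (0.75, SE 0.077, adjusted p = 0.000144). NDE1 and NDE2 encode the external NADH dehydrogenases and moved apart: NDE2 read 13.95 and 15.28 in MDS3e, against 32.8 and 36.7 in Ancestral (-0.73), and NDE1 read 700 and 737 in MDS3e, against 575 and 583 in Ancestral (0.30). COX5B, the hypoxic form of a cytochrome oxidase subunit, read 467 and 399 in MDS3e and 671 and 685 in Ancestral (-0.63). In the tricarboxylic acid cycle 3 of 18 genes were lower and none higher, beside 10.7% and 14.5% of all genes. Their median was -0.10, and -0.01 after loess and with the brightness group subtracted. None or 1 was lower in the 3 runs without either MDS3e array or the second Ancestral array and in the runs without either MDS3e MKT1e or PMA1e MKT1e array. Of the mitochondrial ribosomal protein genes 13 of 71 were higher and 1 lower, beside 14.5% and 10.7% of all genes, with a median of 0.07 (0.01 after quantile normalization), and with 2 higher without the first MDS3e array, 1 without the second, 8 without the second Ancestral array and 6 without either PMA1e MKT1e array.

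Nitrogen genes repressed by good nitrogen sources were lower in part, 11 of 30 measured, with 2 higher and a median of -0.08, and 6 were lower without the second MDS3e array. PUT4, the proline permease, read 171 and 155 in MDS3e, against 248 and 281 in Ancestral (-0.65, adjusted p = 0.00251). PTR2, the dipeptide and tripeptide transporter, read 44.7 and 34.8 in MDS3e and 69.9 and 69.5 in Ancestral (-0.63). PUT1, proline oxidase, went against the list, with 494 and 483 in MDS3e and 342 and 332 in Ancestral (0.52, adjusted p = 0.000453). OPT2, an oligopeptide transporter, was among the largest rises, with 79.7 and 74.0 in MDS3e against 21.8 and 16.4 in Ancestral (1.41, adjusted p = 5.32e-06). ARO9, an aromatic aminotransferase, read 35.5 and 41.0 in MDS3e, against 15.1 and 12.9 in Ancestral (0.85), and DAL5, the allantoate permease, was not called, with 501 and 450 in MDS3e and 450 and 445 in Ancestral.

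Sulfate and methionine genes went both ways, 7 of 26 higher and 5 lower, beside 14.5% and 10.7% of all genes. Their median of 0.03 became -0.03 after median centring. Without the first MDS3e array 2 were higher and none lower, without the second 3 were higher and 1 lower, and without the second Ancestral array none was lower. MUP1, the high-affinity methionine permease, read 145 and 138 in MDS3e, against 104 and 92.2 in Ancestral (0.47), and MET8, an enzyme of siroheme synthesis, read 216 and 213 in MDS3e and 153 and 143 in Ancestral (0.49, adjusted p = 0.000368). MMP1, the permease for S-methylmethionine, read 419 and 386 in MDS3e and 298 and 216 in Ancestral (0.63), with the call lost without the first MDS3e array. The lower members included MET6, methionine synthase, with 1621 and 1794 in MDS3e against 1992 and 2331 in Ancestral (-0.33), a call lost after quantile normalization (-0.13) and loess.

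Pheromone response genes were higher in 6 of 22 cases and lower in 2, and their median of 0.05 became -0.01 after median centring, and 3 were higher without either MDS3e array or without the second Ancestral array. Over all genes 14.5% were higher and 10.7% lower. FUS1, a membrane protein of cell fusion, read 109 and 107 in MDS3e, against 71.6 and 71.3 in Ancestral (0.51, adjusted p = 0.0029). SST2, which shuts the pheromone G protein off, read 160 and 183 in MDS3e and 113 and 123 in Ancestral (0.48). PRM2, a nuclear membrane protein needed for the fusion of nuclei, was lower, with 11.78 and 11.98 in MDS3e against 31.1 and 29.6 in Ancestral (-0.73, adjusted p = 0.000317). In the iron regulon 4 of 29 genes were higher, a share near the 14.5% of all genes, and none lower, with a median of 0.07 (0.01 after median centring), and 2 were higher without the first MDS3e array or without the second Ancestral array. FET4, a low-affinity iron transporter, read 36.1 and 32.0 in MDS3e, against 21.8 and 19.7 in Ancestral (0.45, adjusted p = 0.00192).

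Other large rises fell outside the pathways above. SEO1, a putative permease, read 57.5 and 61.1 in MDS3e, against 23.2 and 21.8 in Ancestral (0.97, adjusted p = 2.16e-05). EEB1, an enzyme that makes ethyl esters of fatty acids, read 620 and 589 in MDS3e and 314 and 317 in Ancestral (0.90). YGR035C, a gene of unknown function, read 101 and 125 in MDS3e, against 56.5 and 46.4 in Ancestral (0.93). YAR009C, a retrotransposon gene on a shared probe set, read 889 and 875 in MDS3e and 531 and 232 in Ancestral (1.29, adjusted p = 0.00992); its Ancestral arrays lay far apart, and the call was lost without either MDS3e array. Of the 53 lists examined, 20 are not described one by one; they hold 370 measured members, 10% higher and 11.9% lower, with list medians between -0.18 and 0.09.

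The effect was measured again where the evolved MKT1 allele was present, as MDS3e MKT1e minus MKT1e, on 4 other arrays of the same platform. The comparisons share probe sets and the pooled spread but no array. There 815 genes were higher with MDS3e (15%) and 625 lower (11.5%), 26.4% in all, and the 1440 calls fell to 893 without the first MDS3e MKT1e array, 700 without the second and 543 without the second MKT1e array. Of the 790 genes higher in MDS3e alone 472 were also higher with MKT1e present, which is 59.7% of the first list and 57.9% of the second. Of the 585 lower genes 421 were also lower, or 72% and 67.4%. The brightest of the 10 groups by mean level held 221 of the 585, and its median was below 0 in both comparisons (-0.15 and -0.17). How much this shared shift adds to the overlap and to the correlation below was not tested. The differences correlated at 0.837 across the 5449 genes, which are not independent of one another, and 96.3% of the genes higher and 96.8% of those lower in MDS3e alone had the same sign. Only MAK31, YLL066W-B and VPS4 were called in opposite directions. MAK31 was higher in MDS3e alone by 0.21 and lower with MKT1e present by 0.64, a call in MDS3e alone that each of the 4 compared arrays decided.

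**Figure D5:**
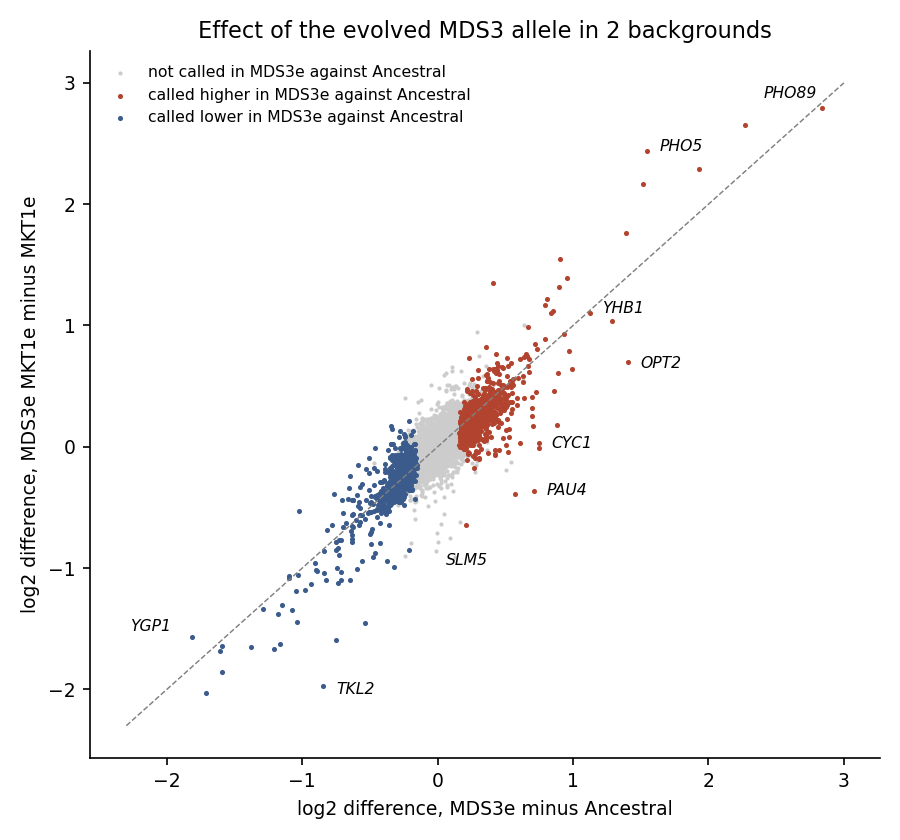
Log2 difference of each gene in MDS3e minus Ancestral (horizontal axis) and in MDS3e MKT1e minus MKT1e (vertical axis), coloured by its call in MDS3e against Ancestral, with a dashed line of equal differences. Points follow the line (correlation 0.837 over 5449 genes), with PHO5 above it and OPT2, CYC1, PAU4, SLM5 and TKL2 below it.

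Phosphate genes rose there too, with 18 of the 33 higher and 3 lower and a median of 0.26, against 0.11 in MDS3e alone. PHO89 read 563 and 587 in MDS3e MKT1e, against 71.2 and 67.6 in MKT1e, a difference of 2.79 beside the 2.84 seen alone. VTC3 read 902 and 923 in MDS3e MKT1e and 256 and 260 in MKT1e (1.76). YGP1 read 717 and 637 in MDS3e MKT1e, against 1991 and 2088 in MKT1e (-1.57), and the stress list had 37 of 46 lower with a median of -0.83. The processome and assembly lists had 20 and 22 genes higher and none lower. In the iron regulon 15 of 29 were higher, against 4 in MDS3e alone, but no iron gene passed the test of the difference between the effects.

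That test compared the effect of MDS3e alone with its effect beside MKT1e, and it called 21 genes (0.385%), 17 with a larger value alone (0.312%) and 4 with a smaller one (0.0734%), with 387 at an unadjusted p under 0.05. The count was 13 without the second MDS3e array or without the second MDS3e MKT1e array. PHO5 read 507 and 515 in MDS3e MKT1e, against 78.2 and 84.0 in MKT1e, so its difference there was 2.44 against 1.54 alone (difference of effects -0.90, adjusted p = 0.005). OPT2 read 21.6 and 24.6 in MDS3e MKT1e and 7.58 and 8.52 in MKT1e (0.70 against 1.41 alone, adjusted p = 0.0348). CYC1 read 1018 and 957 in MDS3e MKT1e and 994 and 999 in MKT1e, overlapping there while it was higher by 0.75 in MDS3e alone (adjusted p = 0.0121). TKL2 read 8.83 and 8.59 in MDS3e MKT1e, against 86.4 and 75.6 in MKT1e, a deeper fall than alone (-1.97 against -0.84, adjusted p = 0.00333). Of the 21 genes, 7 lay in a run of 11 measured neighbours from MAK32 to RHB1 in the gene order of the R64 assembly. In this run the intensity in MDS3e MKT1e was between 0.505 and 0.629 of that in MKT1e for those 7, and 9 of the 11 were lower in MDS3e MKT1e, while none of the 7 but MAK31 and PET18 was called in MDS3e against Ancestral. The cause was not tested.

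Set directly against MKT1e, the other single-allele strain, MDS3e differed more widely. A total of 1334 genes were higher in MDS3e (24.5%) and 1120 lower (20.6%), together 45%. The mitochondrial ribosomal protein list separated the strains, with none of 71 higher and 63 lower in MDS3e, a median of -0.59, where MDS3e against Ancestral had a median of 0.07. MRPL4 read 158 and 156 in MDS3e, against 401 and 394 in MKT1e (-1.26, adjusted p = 2.69e-07). The respiratory list had 33 of 37 genes lower in MDS3e and none higher, with a median of -0.43, and CYC1 read 419 and 435 in MDS3e, against 994 and 999 in MKT1e (-1.19). Stress effectors were lower in 36 of 46 cases and higher in 3, with a median of -0.79. YRO2, which is not in the stress list, read 17.5 and 14.4 in MDS3e, against 386 and 350 in MKT1e (-3.59, adjusted p = 6.85e-08). Nitrogen genes went the other way, 16 of 30 higher and 5 lower, and DAL5 read 501 and 450 in MDS3e, against 127 and 132 in MKT1e (1.76). PHO89 was higher in MDS3e by 2.28, with 393 and 402 in MDS3e against 71.2 and 67.6 in MKT1e, while YHB1 read 452 and 468 in MDS3e and 500.1 and 498 in MKT1e and was not called (adjusted p = 0.28).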

How the data were processed

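Total RNA of haploid S. cerevisiae cultures was labelled as biotinylated cRNA and read on 10 Affymetrix arrays, per the labels' protocols. The deposited values are intensities, 1 per probe set and array, made by the authors in Affymetrix Expression Console (version not given), per the submitters' processing notes. Sources used here do not give its algorithm or scaling, or a genome build. The values are linear, so log2(intensity + 16) was analysed. Of 10928 probe sets, 5498 named 1 S. cerevisiae gene, and the brightest of each gene left 5449 genes, 114 of them on probe sets that may read related genes. The background limit, an intensity of 1.73, was the 95th percentile of probe sets of another species. No array was left out and no further normalization was applied.

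All 10 arrays entered one model with a mean for each genotype (lmFit and eBayes of limma 3.58.1, run in R 4.3.3, with 5 residual degrees of freedom), with two-sided Benjamini-Hochberg adjustment over all genes of a comparison and a threshold of 0.05. The steps were tested on simulated data. Lists are described by counts and medians, without a set test. The rule for named genes took MDS3, MKT1 and PMA1, the 15 largest rises and falls, all members of the phosphate, TOR, Rim101, trehalose and glycogen lists, up to 6 of each other list, members against their list's majority, and leading genes of the other comparisons. A few others, such as STE2, STE3, MF(ALPHA)1, SSA4, SUR7, HXK2, MIG1, SNF3, MSN2, MSN4, RIM15, AAC1, HEM1, DAL5, MRPL4 and MET6, were chosen after their values were seen. The members and lists were chosen with earlier results of these data known. Alternatives were other pseudocounts, scalings, filters, variance settings, a replicate block and leaving out each array; subtracting the median of genes of like brightness was added after the values were seen. Of 144 genes named against Ancestral, 111 were called.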

Additional observations from a re-analysis of the deposited data

Results flagged for a closer look

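The results here are genes in which the effect of MDS3e alone (MDS3e minus Ancestral) differed from its effect beside MKT1e (MDS3e MKT1e minus MKT1e) by limma's interaction test at an adjusted p under 0.05. Each value is the first effect minus the second on the log2 scale.

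In the run of neighbours from MAK32 to RHB1 the values were 0.784 for MAK32, 0.639 for PET18, 0.849 for MAK31, 0.707 for YCR023C, 0.844 for SLM5, 0.789 for NPP1 and 0.844 for RHB1. Among genes on shared probe sets they were 1.03 for YGR109W-A, 0.958 for YLL066W-B, 0.719 for PAU18, 1.08 for PAU4 and -0.937 for IMD2, an IMP dehydrogenase of guanine nucleotide synthesis. IMD2 read 397 and 311 in MDS3e and 274 and 248 in Ancestral, against 84.1 and 86.6 in MDS3e MKT1e and 22.5 and 25.1 in MKT1e.

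Among metabolic and transport genes the values were 1.13 for TKL2, 0.706 for OPT2, -0.896 for the acid phosphatase PHO5 and -0.564 for the phospholipase PLB2. CYC1, cytochrome c, had 0.763, AIF1, a mitochondrial cell death effector, 0.703, and ANB1, the hypoxic eIF5A, -0.453. ANB1 read 29.0 and 26.7 in MDS3e MKT1e and 27.6 and 28.8 in MKT1e, so the fall seen in MDS3e alone had no counterpart there. ENT4, an adaptor-like protein, had 0.564 and YNL195C 0.601.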

How the results depend on the processing

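With 2 arrays per genotype the number of calls depended on single arrays, and none of the 111 named genes called against Ancestral turned its direction under an alternative, while 15 of the 33 that were not called did. For MDS3e against Ancestral the count ranged from 554 to 1437 when 1 of the 10 arrays was left out, and was 790 with only the compared genotypes in the model and 549 at an adjusted p under 0.01. For MDS3e MKT1e against MKT1e it ranged from 543 to 1700 and was 612 at the stricter threshold, for MDS3e against MKT1e it ranged from 1659 to 2642 and was 1581, and for the difference of effects it ranged from 13 to 24 and was 12. Of the 111 genes 87 kept the call in every such run, against 388 of all 1375 called genes; genes named were partly chosen for this.

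Scaling changed the balance of directions. Median centring moved the median of all genes by -0.06 and gave 504 higher and 845 lower genes (37.4% higher, against 57.5% as deposited), quantile normalization gave 547 and 559, and loess 567 and 574. For MDS3e MKT1e against MKT1e median centring gave 465 higher and 912 lower. Of the called genes 848 kept their call under all 3 scalings. Some medians of the lists described turned sign. They were -0.0399 for the MDS3 and TOR list, -0.0115 for the phosphatases, -0.0309 for early meiotic genes, -0.0292 for sulfate genes and -0.0101 for pheromone genes after median centring. Others were 0.0502 for histones and 0.00514 for small subunit ribosomal proteins after quantile normalization, 0.0174 for histones and 0.0274 for the respiratory list after loess, -0.0405 and -0.0457 for the MDS3 and TOR list after quantile normalization and loess, and 0.064 for the respiratory list and -0.0416 for the MDS3 and TOR list after the median of genes of like brightness was subtracted. The sulfate median lay between -0.00653 and 0.0382 when 1 array was left out, that of the MDS3 and TOR list between -0.0174 and 0.0517, and that of the Rim101 list between -0.0771 and 0.0532.

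Replicate numbers are shared between genotypes in the labels but were not treated as pairs, since the deviations of same-numbered arrays did not go together in every pair of genotypes. They correlated at 0.242 between MDS3e and Ancestral, 0.191 between MDS3e and MKT1e, 0.389 between Ancestral and MKT1e and -0.138 between MDS3e MKT1e and MKT1e, with a lowest value of -0.204. With the replicate number as a block the counts were 1384 for MDS3e against Ancestral, 1480 for MDS3e MKT1e against MKT1e, 2465 for MDS3e against MKT1e and 22 for the difference of effects.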

Other observations

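In some genes on shared probe sets the Ancestral arrays lay far apart. YAR009C read 531 and 232 on the Ancestral arrays, and RPL41A, on a shared probe set, read 317 and 126 there, against 304 and 336 in MDS3e. RPL41A had a difference of 0.63, larger than that of any called ribosomal protein gene of the large subunit, and was not called (adjusted p = 0.183). MKT1 read 510 and 503 in MDS3e and 545 and 409 in Ancestral, and the difference of 0.10 was not called (adjusted p = 0.532).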
